A study of Homo sapiens with 5 samples.

Results

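The genes described here are 10 regulators of G protein signaling, RGS2, RGS3, RGS4, RGS5, RGS6, RGS7, RGS9, RGS11, RGS16 and RGS17, out of 64837 gene entries that were counted and 20360 that had enough reads to be tested. They were taken by symbol, with changes in this same contrast known, so their own fold changes and calls are given as a description without p-values. RGS5 stands for 2 entries of the annotation, a protein-coding gene and a noncoding one with the same symbol. The coding entry was treated as the member and the noncoding one is given beside it. The cells were NCI-H209, an established human small-cell lung cancer (SCLC) line that grows with neuroendocrine features. The 3 control libraries came from untreated parental cells. The 2 co-cultured libraries came from NCI-H209 cells that shared medium for 24 h with human brain microvascular endothelial cells (HBMECs) held in a Transwell insert, a model of the vascular niche of the brain in which the cell types do not touch. Every library came from this 1 line. The paper grew NCI-H209 in RPMI 1640 with fetal bovine serum and gave HBMECs Nu-serum as well, and it does not state the medium of the co-culture. A difference in medium between the groups thus cannot be told apart from co-culture. Nothing in the labels says that the replicates were separate cultures, so the errors below measure the spread between these libraries, which may be technical.

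G proteins relay signals from seven-transmembrane receptors: the receptor loads GTP onto the Gα subunit, Gα and Gβγ separate, and both act on effectors such as adenylyl cyclases, phospholipase C and potassium channels. RGS proteins end the signal by speeding up GTP hydrolysis on Gα. The R4 subfamily (here RGS2, RGS3, RGS4, RGS5 and RGS16) holds mostly small proteins with little beyond the RGS domain. The R7 subfamily (RGS6, RGS7, RGS9 and RGS11) is typical of neurons and needs the atypical subunit Gβ5 to be stable, and RGS17 belongs to the RZ subfamily, which acts on Gαz and Gαi.

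Several R4 proteins are short-lived because of how they begin. In RGS4, RGS5 and RGS16 the residue after the initiator methionine is cysteine, which oxygen-dependent oxidation and arginylation turn into a degradation signal. The first bases of the coding sequences, from GENCODE 29 transcripts, are printed because this start sets those 3 members apart from the rest of the group. The second codon is in capitals.
RGS4: atgTGCaaagggcttgcaggtctgccggct
RGS5: atgTGCaaaggacttgcagctttgccccac
RGS16: atgTGCcgcaccctggccgccttccccacc
RGS2: atgCAAagtgctatgttcttggctgttcaa
A cysteine codon stood in second place in 1 of 1 coding transcripts of RGS16, 3 of 6 of RGS4 and 3 of 5 of RGS5, and in no coding transcript of the other 7 members. Over 19564 coding genes, 335 (1.71%) had such a transcript. RGS2, also of the R4 subfamily, is printed as an example without it.

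The libraries held 15457071 to 19157348 reads on the sense strand of annotated genes, and a count of 3 corresponded to 0.154 to 0.198 CPM, the read count relative to library size. Unmapped reads were 8.13% to 8.48% of all reads in control but 15.9% and 16.8% in co-culture; the part of this difference in the results was not tested. Of 14 neuroendocrine markers of SCLC, 13 had enough reads to be tested, with NCAM1 at 497 ± 40.0 CPM in control (SD, n = 3), while CHGA, which encodes chromogranin A, had at most 1 read in any library. The values below are CPM scaled by TMM (trimmed mean of M values), and fold changes are log2 of co-cultured over control, with the standard error of the edgeR fit.

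All 10 members were detected and passed the filter on low counts. In co-culture RGS4, RGS16 and RGS5 were higher, RGS6 and RGS11 were lower, and the other 5 did not pass the threshold of an adjusted p of 0.05. The background of this contrast was broad: 33.4% of all genes tested were called, 18.4% higher and 15.0% lower. The study called differentially expressed genes (DEGs) at a fold change beyond 1 and a p below 0.05 without naming the scale or an adjustment. Read here as more than 1 log2 unit in either direction at an unadjusted p below 0.05, RGS4 and RGS16 were upregulated and RGS6 and RGS11 downregulated, beside 10.5% of all genes (5.44% upregulated and 5.01% downregulated). The split over all genes was 3750 higher and 3059 lower, and 3076 higher and 3929 lower after upper-quartile normalization. By subfamily, 3 of 5 R4 members were higher and none lower (median log2 fold change 0.61), and 2 of 4 R7 members were lower and none higher (median -0.43). The R7 median lay near no member, with RGS6 at -2.94, RGS11 at -1.05, RGS9 at 0.18 and RGS7 at 0.31. The median was 0.14 over the 10 members and -0.03 over all genes. In a bulk sample, fewer cells that express a gene and less RNA per cell cannot be told apart.

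**Figure D1:**
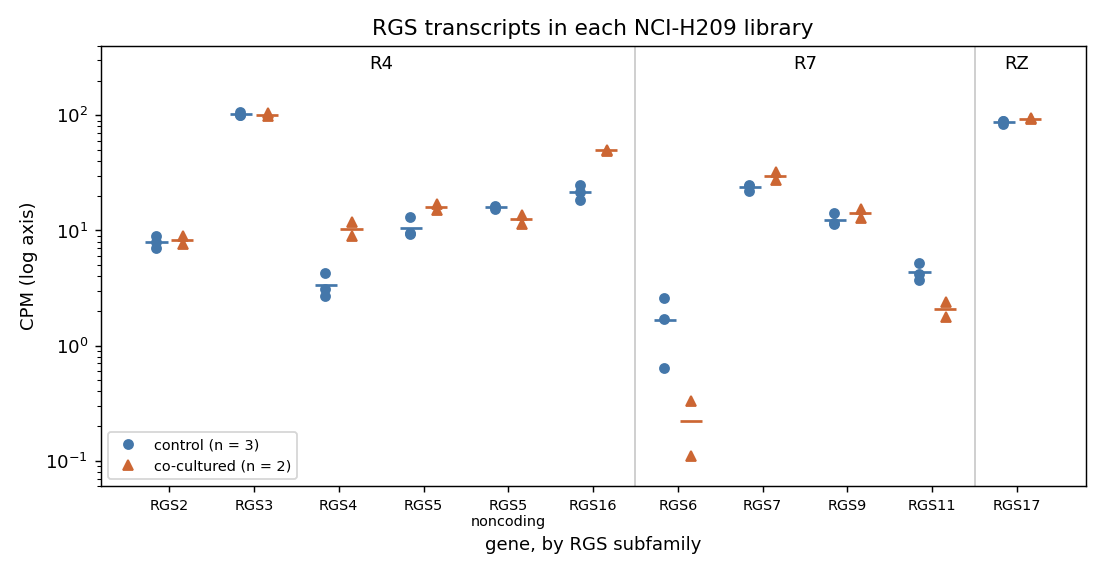
CPM of each member in each library on a log axis, grouped by subfamily, with circles for the 3 control libraries, triangles for the 2 co-cultured libraries and a short line at each mean. RGS4 and RGS16 rise clear of their control values, RGS6 and RGS11 lie below theirs, and RGS3 and RGS17 stay between 84.8 and 107 CPM in both groups.

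Levels were compared between genes per kb of exon. In control the order from the highest was RGS17 (11.1 ± 0.311 CPM per kb), RGS7 (9.26 ± 0.577), RGS16 (8.89 ± 1.33), RGS3 (7.43 ± 0.292), RGS2 (3.81 ± 0.437), RGS9 (1.78 ± 0.227), RGS5 (1.55 ± 0.304), RGS11 (0.911 ± 0.157), RGS4 (0.697 ± 0.172) and RGS6 (0.185 ± 0.111), each as mean ± SD of 3 libraries. The ranges of RGS7 and RGS16, of RGS16 and RGS3, of RGS9 and RGS5 and of RGS11 and RGS4 overlapped, so their order within the group is not resolved. In co-culture RGS16 stood first, at 20.5 ± 0.362 CPM per kb (n = 2), and RGS4 was at 2.14 ± 0.426, with a range that overlapped those of RGS9 and RGS5. The summed level of the 10 genes was 276 ± 5.10 CPM in control and 325 ± 4.02 CPM in co-culture, of which RGS3 and RGS17 made up 68.9% and 59.9%. Exon length here is the union over all transcripts of a gene, so a gene with many long isoforms is placed lower than its main transcript would be.

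**Figure D2:**
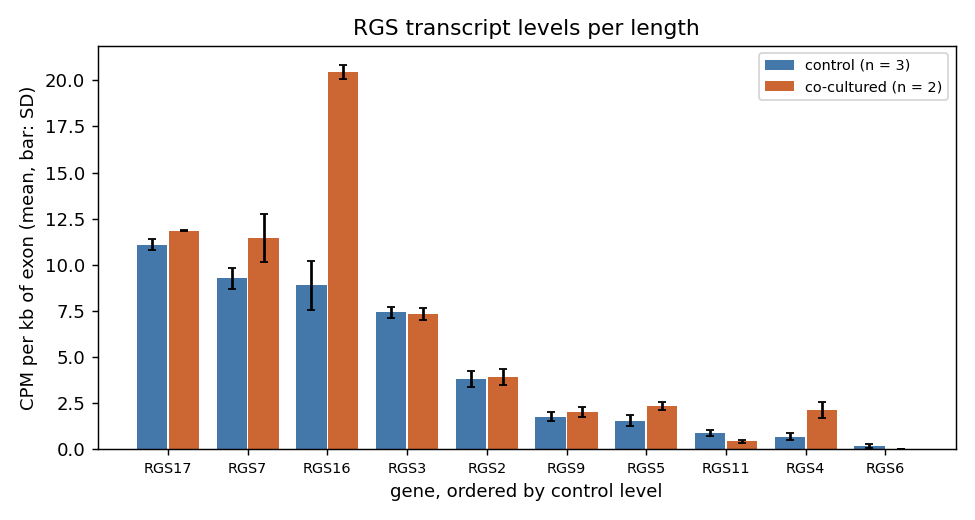
Mean CPM per kb of exon with the SD as bars, for 3 control and 2 co-cultured libraries, in the order of the control level. RGS16 goes from 8.89 to 20.5 and becomes the highest member, while RGS6 is close to 0 in both groups.

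RGS16, an R4 protein that acts on Gαi and Gαq, lies at chr1:182598623-182604408 on the minus strand. It had 467, 332 and 420 reads in control and 897 and 761 in co-culture, or 24.8, 18.4 and 21.5 CPM against 49.0 and 50.3. Both co-cultured libraries lay far above the 3 controls and close to each other. The log2 fold change was 1.20 ± 0.12, a fold of 2.30. RGS4, which is best known from brain and heart and restrains Gαi and Gαq signals, lies at chr1:163068775-163076802 on the plus strand. It had 81, 56 and 53 reads in control and 163 and 179 in co-culture, or 4.31, 3.10 and 2.71 CPM against 8.91 and 11.8. The groups did not overlap, and the log2 fold change was 1.61 ± 0.23, a fold of 3.06. Both genes kept their call under all 12 alternative settings, with log2 fold changes of 1.10 to 1.32 for RGS16 and 1.40 to 1.83 for RGS4.

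RGS5, known as a marker of pericytes and vascular smooth muscle, is the neighbour of RGS4, with 34.3 kb between the 2 genes and their ends facing each other. The coding entry (chr1:163111121-163321791, minus strand) had 244, 168 and 185 reads in control and 277 and 259 in co-culture, or 13.0, 9.29 and 9.47 CPM against 15.1 and 17.1. Control 1 was the highest of its group and still lay below both co-cultured libraries. The log2 fold change was 0.61 ± 0.17. The noncoding entry (chr1:163244505-163321894, same strand) went the other way, with 15.5, 16.4 and 15.9 CPM in control against 11.3 and 13.7, a log2 fold change of -0.35 ± 0.13 that did not pass the threshold. The entries lie on the same strand over the whole of the noncoding one, and reads that fall on exons of both are not assigned to either. With the counts of both entries summed, an alternative chosen after the data were seen, the log2 fold change was 0.11 ± 0.11 and the call was lost. The call of the coding entry was also lost without control 2, without control 3, without either co-cultured library and with the replicate number as a block, at log2 fold changes of 0.52 to 0.78 over all alternatives.

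Since RGS5 is a vascular marker and the partner cells were endothelial, markers of both kinds are given beside it. The summed level of 20 endothelial markers was 21.7, 14.8 and 10.4 CPM in control and 13.8 and 14.1 CPM in co-culture. Of these, 8 had at most 3 sense reads in every library, and MMRN1 and PLVAP had none. ESAM, an endothelial junction protein, was the 1 that passed the test, at a log2 fold change of 2.14 ± 0.46 (quasi-likelihood test of edgeR, Benjamini-Hochberg adjusted p = 0.00666). ESAM had 3, 4 and 6 reads in control and 21 and 14 in co-culture, so its control level rests on few reads. The call of ESAM was lost without co-cultured 1. The summed level of 14 pericyte and fibroblast markers was 21.7, 24.1 and 21.4 CPM in control and 31.5 and 27.7 CPM in co-culture. MYH11 and HIGD1B were at 0 sense reads in every library. On the opposite strand HIGD1B had 35, 32 and 29 reads in control and 7 and 18 in co-culture. NDUFA4L2, a mitochondrial protein that pericytes share with cells under hypoxia, was the 1 member of the list that was called, at 0.89 ± 0.12 (adjusted p = 0.000888). Reads on the opposite strand made up 46.4% of those at NDUFA4L2 in control and 44.1% in co-culture, and its call held with unstranded counts. Without NDUFA4L2 the other 13 summed to 11.5, 13.8 and 10.4 CPM in control and 10.4 and 9.78 CPM in co-culture. Among these, PDGFRB, LUM and COL3A1 had reads mainly in control 1 and control 2, as did the endothelial markers FLT1, KDR and TEK. PDGFRB had 34, 30 and 0 reads in control and 1 and 2 in co-culture, and KDR 37, 27 and 2 against 12 and 4. Such reads add to the sums of control 1 and control 2 more than to the others, so the sums do not compare the groups evenly. The part of these levels in the value of RGS5 was not tested.

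RGS5 and RGS16 differ in the sequence before their starts, which is printed for that reason, from RefSeq on GRCh38.p14 and read 5′ to 3′ on the minus strand. Capitals mark ACGTG or GCGTG, the core of the element bound by hypoxia-inducible factors, on either strand. The first sequence is the 250 bases before the start of RGS16 (chr1:182604390-182604639), the second the 250 bases before the start nearest to the coding RGS5 transcript shown above (chr1:163202917-163203166), and the third the 218 bases that lie between the upstream start of RGS5 and the start of NUF2 on the other strand (chr1:163321736-163321953).
RGS16: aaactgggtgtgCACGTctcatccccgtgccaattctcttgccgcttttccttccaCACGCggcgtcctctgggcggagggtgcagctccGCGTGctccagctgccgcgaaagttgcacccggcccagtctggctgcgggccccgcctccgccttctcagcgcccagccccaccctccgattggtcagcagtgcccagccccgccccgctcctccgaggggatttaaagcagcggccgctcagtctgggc
RGS5, own start: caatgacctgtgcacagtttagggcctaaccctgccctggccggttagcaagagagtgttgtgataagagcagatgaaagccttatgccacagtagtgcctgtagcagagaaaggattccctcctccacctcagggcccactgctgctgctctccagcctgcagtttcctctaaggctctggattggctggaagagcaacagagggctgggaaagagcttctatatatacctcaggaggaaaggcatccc
RGS5, upstream start: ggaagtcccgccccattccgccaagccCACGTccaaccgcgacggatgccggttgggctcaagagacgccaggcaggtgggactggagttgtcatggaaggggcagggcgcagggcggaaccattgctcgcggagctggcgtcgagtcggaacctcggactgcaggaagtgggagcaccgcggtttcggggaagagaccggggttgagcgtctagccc
The window of RGS16 held 3 matches and that of the RGS5 start nearest to the coding transcript none. The 250 bases before the RGS16 start and before the upstream RGS5 start held 22 CpG dinucleotides each, those before the other RGS5 start 1, and the median over all promoters was 11. Over 34943 promoter windows of 250 bases, 43.2% held at least 1 match, and so did 9 of the 22 windows listed for 9 members, so the match is common and a description only. Among the same 22 windows, TGACG stood in 5 (21.2% of all windows) and TATAA in 5 (19.0%), on either strand. RGS11 had no entry.

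The upstream start of RGS5 lies 219 bases from that of NUF2, a kinetochore gene read on the opposite strand. Both RGS5 entries begin near there on the minus strand, the coding one at position 163321791 and the noncoding one at 163321894. The annotated NUF2 gene (chr1:163266576-163355764) overlaps both entries. NUF2 was looked up after the values of RGS5 were seen. It had 101, 91.0 and 99.9 CPM in control and 63.2 and 64.6 CPM in co-culture, a log2 fold change of -0.60 ± 0.08 (adjusted p = 0.000712). The coding RGS5 entry was thus higher and NUF2 lower, and the noncoding entry was lower in both co-cultured libraries without passing the test. Which start the reads of the coding entry came from cannot be read from gene counts.

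**Figure D3:**
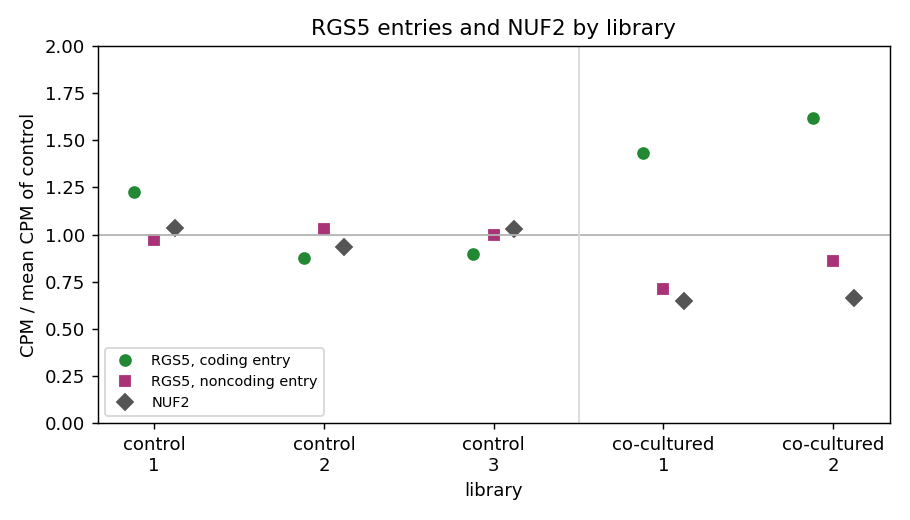
CPM of the coding RGS5 entry (circles), the noncoding RGS5 entry (squares) and NUF2 (diamonds) in each library, divided by the mean CPM of the 3 control libraries. In both co-cultured libraries the coding entry lies above 1, and the noncoding entry and NUF2 below it.

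The other R4 members, RGS3 and RGS2, were not called. RGS3, a large member with several isoforms, had the most reads of the 10 genes, with 100.3, 99.9 and 107 CPM in control and 104 and 97.7 CPM in co-culture. Its log2 fold change was -0.02 ± 0.08. RGS2, which prefers Gαq, had 7.07, 8.90 and 7.99 CPM in control and 8.91 and 7.60 CPM in co-culture, a log2 fold change of 0.05 ± 0.16. The groups overlapped for both genes. RGS2 closes a row of 5 RGS genes on chromosome 1 that spans 654 kb (chr1:192158457-192812283, from RGS18 through RGS21, RGS1 and RGS13 to RGS2). The other 4 genes of the row, known from blood and taste cells, had at most 3 sense reads in any library. RGS2 was thus the 1 gene of the row detected above that floor on its own strand.

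Within the R7 subfamily the rarer members fell and the commoner ones did not. RGS6 (chr14:71932439-72566529, plus strand) had 12, 31 and 51 reads in control and 2 and 5 in co-culture, or 0.638, 1.71 and 2.61 CPM against 0.109 and 0.330. The groups did not overlap, but the controls themselves spread over a range of 4.09-fold and the co-cultured values were at or near the floor of 3 reads. The log2 fold change was -2.94 ± 0.75, between -3.84 and -2.30 over the alternatives, and the call was lost without either co-cultured library. RGS11 (chr16:268301-275980, minus strand), which in the retina serves ON-bipolar cells, had 70, 94 and 82 reads in control and 44 and 27 in co-culture, or 3.72, 5.20 and 4.20 CPM against 2.40 and 1.78. Its log2 fold change was -1.05 ± 0.25, and its call too was lost without either co-cultured library.

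RGS7 and RGS9 carried most of the R7 reads. RGS7, the main R7 protein of the brain, had 25.0, 24.4 and 22.2 CPM in control and 27.2 and 31.9 CPM in co-culture, with no overlap of the groups and a log2 fold change of 0.31 ± 0.11 that did not pass the threshold. It was called in 2 of the 12 alternatives, with unstranded counts and without control 1. RGS9, which ends the light response in photoreceptors and has a second isoform in striatum, had 11.3, 11.7 and 14.2 CPM in control and 12.8 and 15.4 CPM in co-culture, a log2 fold change of 0.18 ± 0.15 with overlapping groups. RGS17, the RZ member, had 84.8, 88.7 and 89.3 CPM in control and 93.4 and 93.9 CPM in co-culture. Its groups did not overlap, the difference was small at 0.10 ± 0.07, and it was not called under any alternative. In all, the groups did not overlap for 7 of the 10 members, beside 59.4% of all genes tested (29.4% higher and 30.0% lower in co-culture).

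Reads on the strand opposite to a member made up at most 5.47% in either group except at RGS11 and RGS17. At RGS11 they made up 29.7% of the reads on both strands in control and 21.1% in co-culture. ARHGDIG, a gene on the other strand that was looked up for this overlap, had 3.72, 5.36 and 4.66 CPM in control and 1.91 and 1.26 CPM in co-culture, a log2 fold change of -1.51 ± 0.28 (adjusted p = 0.00330), so both genes of the overlapping pair were lower. At RGS17 the opposite strand held 414, 453 and 535 reads in control and 267 and 211 in co-culture, 22.1% and 13.2% of the reads on both strands. Both co-cultured libraries thus held fewer of these reads than any control, and this difference was not tested.

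**Figure D4:**
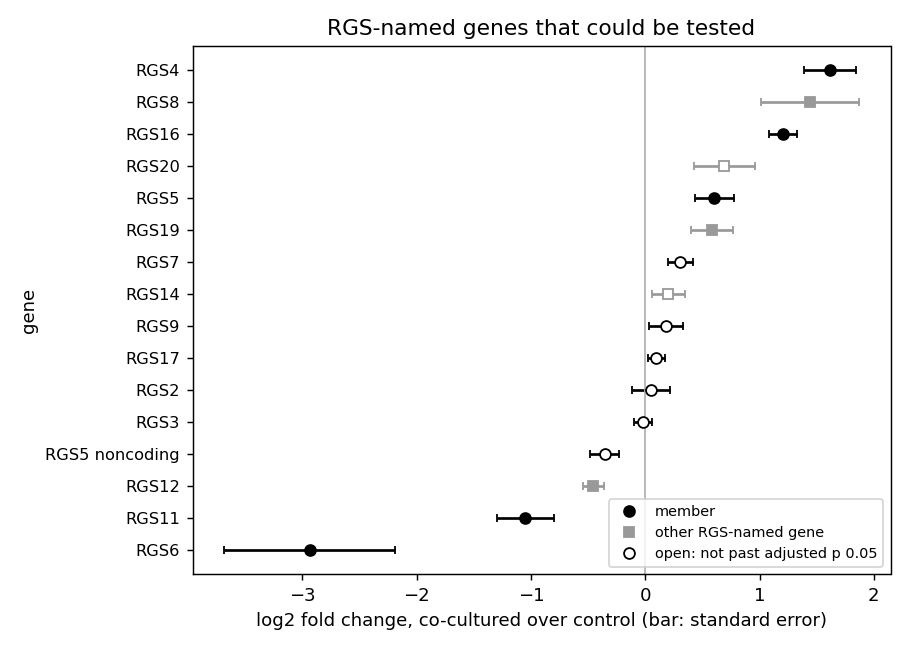
Log2 fold change, co-cultured over control, with its standard error, of the RGS-named genes that had enough reads, with black circles for the members and the noncoding RGS5 entry, grey squares for other RGS-named genes and open symbols for genes that did not pass an adjusted p of 0.05. RGS4 at 1.61 and RGS6 at -2.94 mark the ends.

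The wider family is given for comparison. Like the members, this list and the others in the text were chosen with earlier results of these data known. Their counts of calls beside the share over all genes are therefore a description. Of 21 RGS-named coding genes, 11 are not among the members, and 5 of these had enough reads to be tested. RGS8, an R4 relative whose gene lies 37.4 kb from RGS16 on the same strand, had 5, 10 and 10 reads in control and 26 and 15 in co-culture, a log2 fold change of 1.44 ± 0.43 (quasi-likelihood test of edgeR, Benjamini-Hochberg adjusted p = 0.0290). RGS12, a scaffold with several domains, fell by 0.45 on the log2 scale (SE 0.09, adjusted p = 0.00470). In the list of 28 other genes with an RGS or RGS-like domain, 20 were tested, 6 rose and 2 fell, with a median log2 fold change of 0.15. GRK3, a kinase that desensitizes receptors, had the clearest rise at 1.09 ± 0.08 (adjusted p = 4.03e-05), from 47.1 ± 1.76 CPM (SD, n = 3) to 100.4 ± 0.891 CPM (n = 2). Its relative GRK2 rose by 0.25 ± 0.07 (adjusted p = 0.0259), and SNX13, a sorting nexin with an RGS domain, changed by -0.27 ± 0.07 (adjusted p = 0.0190). The count of 8 calls in the list was 5 after upper-quartile normalization, 3 without control 2 and without control 3, 1 without co-cultured 1 and 2 without co-cultured 2. RGS8 and RGS12 lost their calls without either co-cultured library, and SNX13 and GRK2 without any 1 library other than control 1. The block also ended the calls of RGS8, SNX13 and GRK2, DESeq2 that of RGS8, unstranded counts that of SNX13 and upper-quartile normalization that of GRK2.

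Of the 4 tested partners of the R7 proteins, 2 rose and none fell, beside 18.4% higher and 15.0% lower over all genes. GNB5, which encodes the Gβ5 subunit that R7 proteins need, was at 51.8 ± 3.92 CPM in control and 52.1 ± 1.72 CPM in co-culture, a log2 fold change of 0.01 ± 0.09 (adjusted p = 0.951) whose sign depended on the setting. RGS7BP, the palmitoylated protein that anchors R7 complexes to the membrane, had 167, 157 and 178 reads in control and 355 and 294 in co-culture. It rose by 1.13 ± 0.12 (adjusted p = 0.000203). GPR158, a receptor that binds RGS7, had 267, 260 and 288 reads in control and 464 and 404 in co-culture and rose by 0.85 ± 0.10 (adjusted p = 0.000429). Both kept their call under every alternative setting. RGS9BP, the anchor of RGS9 in photoreceptors, was at 2.15 ± 0.757 CPM and 1.89 ± 0.425 CPM, a log2 fold change of -0.17 ± 0.35 (adjusted p = 0.736) whose sign also depended on the setting, and GPR179, a retinal relative of GPR158, had no read in any library.

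Among the G protein subunits, whose Gα are the substrates of the family, 12 of 21 tested rose and none fell. The list held 32 genes, and the median log2 fold change was 0.41. Over all genes tested, 18.4% were higher and 15.0% lower. Of the Gα subunits on which members act, GNAZ rose by 0.81 ± 0.09 (adjusted p = 0.000353), GNAQ by 0.60 ± 0.10 (adjusted p = 0.00169), GNAI3 by 0.51 ± 0.08 (adjusted p = 0.00130), GNAI2 by 0.42 ± 0.09 (adjusted p = 0.00627) and GNAI1 by 0.41 ± 0.09 (adjusted p = 0.00775). GNAO1, the Gα of neurons and the most abundant of these in CPM, was at 456 ± 7.90 CPM in control and 392 ± 11.9 CPM in co-culture, a log2 fold change of -0.22 ± 0.08 (adjusted p = 0.0539), and GNA11 was at 0.27 ± 0.10 (adjusted p = 0.0634). GNAO1 was called lower in 3 of the 12 alternative settings: upper-quartile normalization (-0.30), 10 counts in every library (-0.23) and without control 1 (-0.21). GNA11 was called higher in 3: at least 1 count in any library (0.27), unstranded counts (0.32) and without control 1 (0.37). GNAL, the Gα of olfactory neurons, rose by 1.65 ± 0.32 (adjusted p = 0.00454) on the sense strand, but with unstranded counts the value was -0.16 and not called, and in control 1 it had 13 sense reads beside 284 on the opposite strand. GNG12 rose by 1.31 ± 0.15 (adjusted p = 0.000333), GNG2 by 0.79 ± 0.17, GNB1 by 0.63 ± 0.10, GNB2 by 0.51 ± 0.08 and GNB4 by 0.47 ± 0.11. The count of 12 was 7 without co-cultured 1. The calls of GNAI1, GNAI2 and GNB4 were lost without either co-cultured library, that of GNAI1 also with the block, and that of GNG2 without co-cultured 1.

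**Figure D5:**
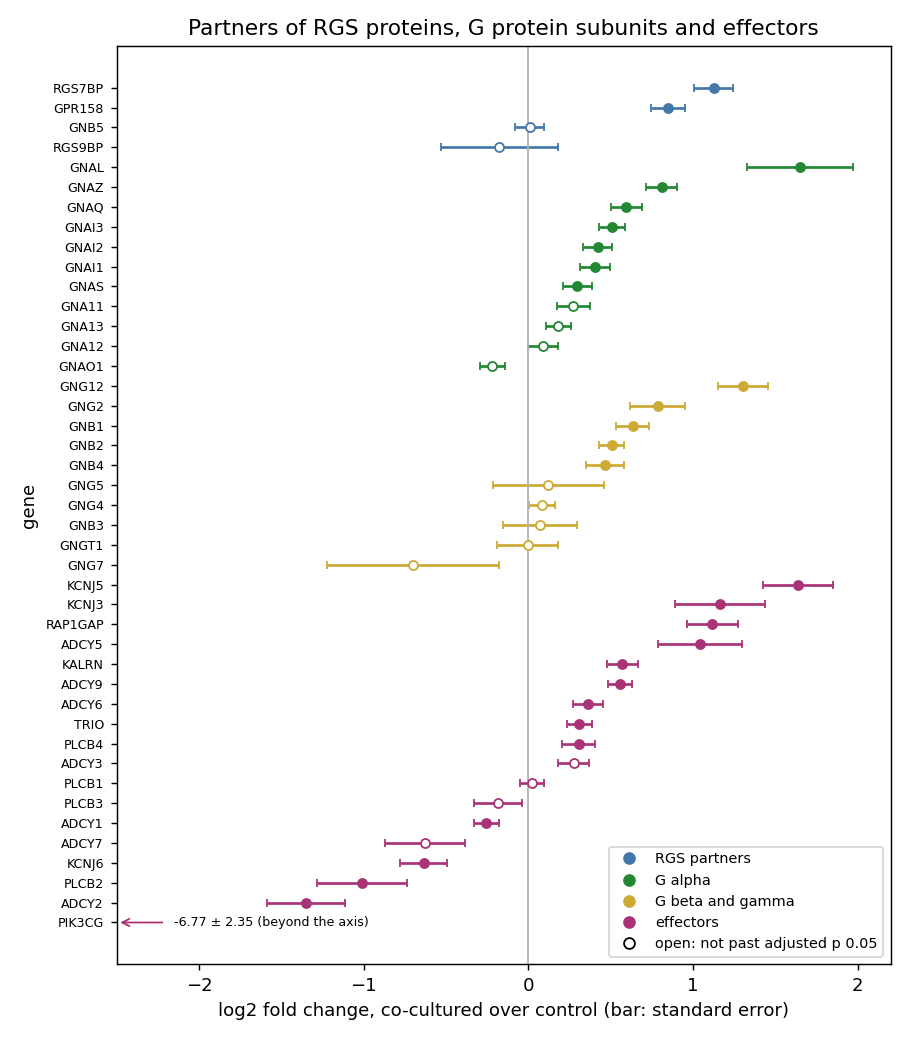
Log2 fold change, co-cultured over control, with its standard error, of the tested partners of RGS proteins, Gα subunits, Gβ and Gγ subunits and effectors, with open symbols for genes that did not pass an adjusted p of 0.05. Filled Gα, Gβ and Gγ symbols all lie to the right of 0, and PIK3CG, at -6.77 ± 2.35 and not called, lies beyond the axis.

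Modulators and effectors of G proteins moved both ways, with 11 of 27 tested genes higher and 6 lower of 34 listed. The share called was 63.0%, beside 33.4% over all genes tested, and the median log2 fold change was 0.12. KCNJ5, a subunit of the potassium channel that Gβγ opens, had 446, 257 and 254 reads in control and 1021 and 756 in co-culture and rose by 1.64 ± 0.21 (adjusted p = 0.000593). RAP1GAP, a Rap GTPase activator that binds Gαz and Gαi, rose by 1.12 ± 0.16 (adjusted p = 0.000853), the exchange factor KALRN by 0.57 ± 0.10 (adjusted p = 0.00207) and the adenylyl cyclase ADCY9 by 0.56 ± 0.07 (adjusted p = 0.000610). Another cyclase, ADCY2, went from 145, 189 and 240 reads to 63 and 69, a log2 fold change of -1.35 ± 0.24 (adjusted p = 0.00267). GPSM2, which holds Gαi in its GDP form during spindle orientation, changed by -0.46 ± 0.08 (adjusted p = 0.00288) and RASD1, a Ras-like activator of Gαi, by -0.76 ± 0.14 (adjusted p = 0.00358). PCP2 rose by 1.50 ± 0.39 (adjusted p = 0.0162) on the sense strand, but with unstranded counts the value was 0.42 and not called, and 59.8% of its reads in control lay on the opposite strand. ARRB1, which encodes β-arrestin 1, rose by 0.54 ± 0.16 (adjusted p = 0.0319). The count of 17 was 5 without co-cultured 1 and 7 without co-cultured 2. Without co-cultured 1 the calls of ADCY2, GPSM2, PCP2 and ARRB1 were lost, without co-cultured 2 those of RASD1, PCP2 and ARRB1, and ARRB1 was also lost without control 2 or control 3 and with the block.

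Of 7 genes of the pathway that acts on the cysteine start printed above, all were tested, 2 were higher and 1 lower. The list also held IL32, a substrate, for 3 higher of 8. Over all genes tested, 18.4% were higher and 15.0% lower. ADO, the dioxygenase that oxidizes the cysteine, rose by 0.59 ± 0.09 (adjusted p = 0.00159), from 52.1 ± 3.94 to 78.4 ± 6.41 CPM. UBR4, a ubiquitin ligase of the pathway, rose by 0.42 ± 0.09 (adjusted p = 0.00540). METAP2, a methionine aminopeptidase, changed by -0.43 ± 0.08 (adjusted p = 0.00270). IL32, another substrate of ADO, had 76, 32 and 48 reads in control and 151 and 133 in co-culture and rose by 1.62 ± 0.28 (adjusted p = 0.00264). The calls of UBR4 and METAP2 were lost without co-cultured 1. Transcript counts carry nothing on the amount of the RGS proteins themselves.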

How the data were processed

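Total RNA of NCI-H209 cells was depleted of rRNA and made into directional libraries (NEBNext Ultra Directional kit), 3 control and 2 co-cultured. The deposited counts are whole reads per gene for each library, made by the authors with STAR 2.6.1b on GRCh38 per the labels' processing notes. They were used as deposited, from the column of the sense strand, which held 92.3% to 93.1% of stranded reads. A deposited comparison by DESeq2 (means, fold changes and p-values) was used only to pair gene identifiers with symbols. Gene coordinates and lengths came from GENCODE 29.

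Counts were filtered (filterByExpr, minimum count 10), scaled by TMM and tested with edgeR 4.0.16 (quasi-likelihood test, Benjamini-Hochberg adjustment over 20360 genes, R 4.3.3). The fit was tested on simulated data in which every gene had the same dispersion (0.0103), a measure of the spread between libraries. That setting does not cover genes that vary more, such as RGS6. CPM are TMM-scaled, and the floor of 3 counts covers counting error only. The members and lists were chosen with earlier results of these data known, so the shares of calls in the lists are a description too. The text names all members, all partners, 7 Gα substrates and up to 5 genes of each other list with the smallest p among those called; NUF2, ARHGDIG and a few marker genes were added after their values were seen, and 1 gene that this rule names is not reported here. The 12 alternative settings were DESeq2 1.42.0, 2 other normalizations, 2 other filters, unstranded counts, the replicate number as a block and each library left out in turn.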

Additional observations from a re-analysis of the deposited data

How the results depend on the processing

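RGS4 and RGS16 were called under all 12 alternative settings, RGS5 under 7, RGS11 under 10 and RGS6 under 9 of the 11 that could test it, since the filter of 10 counts in every library removes it. The calls over all genes, 6809, ranged from 2734 to 9897 when 1 library was left out and were 4824 with the replicate block. The count of called members, 5, ranged from 2 to 6 with 1 library left out and was 4 with the block, which removed RGS5. Among other RGS-domain genes the 8 calls ranged from 1 to 9 with 1 library left out, and were 5 after upper-quartile normalization and 2 with the block. The partners kept 2 calls throughout. The subunits, 12, ranged from 7 to 17 and the modulators and effectors, 17, from 5 to 20 with 1 library left out. A co-culture group reduced to 1 library is assumed to vary like the control group. The sign of GNB5 turned after upper-quartile normalization (-0.0713), with 10 counts in every library (-0.0029), with unstranded counts (-0.0080), and with 1 library left out (-0.0403 to 0.0672). That of RGS9BP turned with the block (0.0039) and with 1 library left out (-0.432 to 0.0318), and that of GNAL with unstranded counts (-0.16). The cause was not tested. Of 44 genes followed outside the members, 21 lost a call under at least 1 alternative. Replicate numbers are shared by 2 pairs, whose deviations from the group means correlated at -0.11 and -0.07 over all genes. The deviations of the 2 co-cultured libraries mirror each other, so these are not separate checks. They cannot tell whether libraries with the same number were paired. Depth limits RGS6, whose level in co-cultured 1 lies under the floor of 3 counts.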

Other observations

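Among the neuroendocrine markers of SCLC, 6 of 13 tested rose in co-culture and 2 fell (quasi-likelihood test of edgeR, Benjamini-Hochberg adjusted), with a median log2 fold change of 0.37. Over all genes tested, 18.4% rose and 15.0% fell. SCG2, a secretory granule protein, rose by 0.86 ± 0.14 (adjusted p = 0.00192) and ENO2, the neuronal enolase, by 0.66 ± 0.15 (adjusted p = 0.0103). SYP, synaptophysin of synaptic vesicles, rose by 0.57 ± 0.09 (adjusted p = 0.00148) and the adhesion molecule NCAM1 by 0.37 ± 0.09 (adjusted p = 0.0114). The 2 that fell, picked out after their values were seen, were the Notch ligand DLL3, at -0.35 ± 0.10 (adjusted p = 0.0248), and DDC, the decarboxylase of amine synthesis, at -0.58 ± 0.17 (adjusted p = 0.0286). Without co-cultured 1 the calls of ENO2, NCAM1, DLL3 and DDC were lost, and without co-cultured 2 those of NCAM1, DLL3 and DDC. That of DLL3 was also lost without control 2, those of DLL3 and DDC with unstranded counts and that of NCAM1 with the replicate block.

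Some vascular and stromal markers and the kinase gene PIK3CG had reads mainly in control 1 and control 2, and were looked up after their values were seen. FLT1 had 30, 28 and 0 sense reads in control and 1 and 1 in co-culture, with 44 reads on the opposite strand in control 1. PDGFRB had 34, 30 and 0 reads in control and 1 and 2 in co-culture, with 35 on the opposite strand in control 1. PIK3CG had 21, 21 and 0 reads in control and none in co-culture, with 34 on the opposite strand in control 1. LUM had 20, 19 and 0 reads in control and 0 and 2 in co-culture, and COL3A1 had 22, 22 and 3 against 3 and 9, both with no read on the opposite strand in any library. None of these 5 genes passed an adjusted p of 0.05. By the DEG criterion as read above, FLT1, PDGFRB, PIK3CG and LUM counted as downregulated and COL3A1 did not. No RGS member showed such a division of the control libraries. RGS6, the member with the widest spread in control, was highest in control 3 and had no read on the opposite strand in any library.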
